A study of Mus musculus with 2 samples.

Results

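The 10 genes described here, Scd1, Scd2, Scd3, Elovl3, Elovl4, Awat2, Alox12b, Aloxe3, Abca12 and Cers3, encode enzymes and a transporter that make or move the lipids of sebum and of the skin barrier. They were found by gene symbol among the 40879 symbols of the count files, and all 10 were present. They were chosen by name, with the difference between the WT and ERAP1+/- libraries already known, so that this difference is a description of the genes and was not tested.

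RNA came from the intestine of mice on a C57BL/6 background that had received no treatment. The mice were 8 weeks old when they were assigned to groups. The study kept its control group on plain water for several more weeks before tissue was taken. Whether the RNA came from that group, and the age at which it was collected, are not stated. WT mice were compared with mice labelled ERAP1+/-, the hetero type, which carry 1 allele derived from a tm1a allele by crossing to a strain that expresses Cre recombinase, with loxP sites on either side of exons 6 and 7. The Cre strain is not named in the methods, which call the mice of both genotypes germ-free and also state that they were kept in a specific pathogen-free facility. Equal amounts of RNA from 3 mice were pooled for each genotype, and each pool gave 1 library of reads from the 3' ends of transcripts, so that there were 2 libraries in all and no replicates. With 1 library per genotype no test of the genotypes was possible, and a difference below compares these 2 pools.

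Sebaceous glands secrete an oily mixture of wax esters, sterol esters and triglycerides onto skin and hair. Its fatty acids are lengthened by elongases, made monounsaturated by stearoyl-CoA desaturases and joined to fatty alcohols by wax synthases. In the upper epidermis, keratinocytes build acylceramides from fatty acids of extreme length, oxidise them with a pair of lipoxygenases and export them through lamellar granules, which seals the skin against loss of water. Several of these enzymes also serve other tissues. Scd1 and Scd2 act in many cells that store or make fat, including intestinal cells, and Elovl4 also acts in retina and testis. The wax synthases and some of the acylceramide enzymes are known mainly from skin and its glands.

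The desaturase genes are close copies of each other, and the stretch below is shown because a read from it could not be assigned to 1 gene with certainty. It holds 75 coding bases, and Scd1, Scd2 and Scd4 are identical over all of them. Scd3 differs at 1 base, which is the capital letter. In Scd1 the stretch covers coding bases 442 to 516, counted from the start codon, and in Scd3 it covers bases 454 to 528, as read from the GENCODE M21 transcripts of GRCm38.

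Scd1, Scd2 and Scd4: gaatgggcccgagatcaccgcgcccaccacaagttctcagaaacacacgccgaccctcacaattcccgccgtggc

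Scd3: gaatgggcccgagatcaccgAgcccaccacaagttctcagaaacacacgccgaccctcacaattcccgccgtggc

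Over the whole coding sequence, the 4 desaturase genes were identical at 84.0% to 91.5% of aligned bases, with Scd1 and Scd3 the most alike. Runs of 75 bases shared with the transcripts of another gene numbered 154 of 4758 in Scd1, 97 of 5381 in Scd2, 111 of 3415 in Scd3 and 60 of 3232 in Scd4. None of these shared runs lay within the last 500 bases of its transcript, the end from which the libraries were made. The other 7 genes held no run of 75 bases that another gene's transcript shares. Counts of the desaturases are uncertain where reads came from upstream of that end, and which aligner made the counts is not stated.

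Scd3 and Elovl4 had the lowest log2 differences of the 10 genes, and their promoters are shown to give the sequence around these starts. The promoters are from RefSeq on GRCm38.p6 and run from 250 bases before the RefSeq start of the gene to 50 bases after it. For both genes this start differs from that of the GENCODE positions given below. Bases here are counted from the RefSeq start. The Scd3 promoter lies on the plus strand at chr19:44203038-44203337, and the Elovl4 promoter lies on the minus strand at chr9:83806256-83806555. Capitals in the Elovl4 promoter mark an E-box, which begins at base 6 counted from the start. A further run of capitals, beginning at base 26, marks a CCAAT box of the opposite strand. The Scd3 promoter held no match and is in lower case throughout.

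Scd3 promoter: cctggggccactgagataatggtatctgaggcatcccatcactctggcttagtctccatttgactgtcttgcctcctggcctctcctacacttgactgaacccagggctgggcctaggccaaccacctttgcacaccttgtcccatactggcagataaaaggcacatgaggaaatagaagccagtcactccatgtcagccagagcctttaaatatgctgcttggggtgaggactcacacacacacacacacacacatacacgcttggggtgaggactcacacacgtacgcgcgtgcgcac

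Elovl4 promoter: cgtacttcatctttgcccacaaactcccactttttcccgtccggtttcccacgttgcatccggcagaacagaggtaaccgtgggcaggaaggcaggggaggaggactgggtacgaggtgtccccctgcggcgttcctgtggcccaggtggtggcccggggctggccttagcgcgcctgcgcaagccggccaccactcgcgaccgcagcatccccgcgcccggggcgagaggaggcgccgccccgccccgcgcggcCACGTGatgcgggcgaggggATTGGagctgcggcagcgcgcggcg

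The RefSeq table held 7 promoters for 6 of the 10 genes, Scd3, Elovl4, Alox12b, Abca12, Cers3 and Awat2, the last with 2 starts. Scd1, Scd2, Elovl3 and Aloxe3 had no entry. The motifs searched for numbered 6 and were sought on both strands. The CCAAT box, CCAAT, was found in 3 of the 7 promoters and in 37.4% of the 32851 promoters of the table, and the E-box, CACGTG, in 1 of the 7 and in 7.15% of all. The remaining motifs were found in 0 of the 7 promoters. They were the TATA box TATAAA (13.6% of all), the AP-1 site TGANTCA (7.81%), the grainyhead-like site AACCGGTT (0.146%) and the sterol regulatory element TCACNCCAC (1.24%).

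The WT library held 8114826 reads and the library labelled ERAP1+/- 8907515. Values are given as reads and as CPM, reads scaled by TMM to a common library size, and differences on the scale of log2(CPM + 1), as the library labelled ERAP1+/- minus WT. A gene was called lower or higher where this difference passed 2-fold and log2(CPM + 1) was at least 4, or 15 CPM, in 1 or both libraries; this level corresponds to 117 reads in WT and 140 reads in the library labelled ERAP1+/-. As most of the 10 genes lay under that level, calls are also given for genes with at least 10 reads in 1 or both libraries. Intervals are exact conditional binomial 95% intervals and cover counting error only, since PCR copies were not marked and mice were pooled. A gene without a read was set at up to 3 reads, which is 0.322 CPM in the library labelled ERAP1+/-. A fold given as at least a value uses these 3 reads and takes the WT count as exact. The exact 95% limits, which also cover the counting error of WT, were lower, for example 31.5-fold for Elovl3, 7.21-fold for Alox12b, 58.5-fold for Awat1 and 15.6-fold for Scd4.

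Erap1 itself had 229 reads in WT and 2 in the library labelled ERAP1+/-, 0.730% of the WT level (95% interval 0.0878 to 2.67). A genotype with 1 intact copy would keep more than this, so that the count goes against the label, and the sample is called the library labelled ERAP1+/- throughout. The pools also differed in genes of the sex chromosomes: Xist had 1635 reads in WT and 6451 in the library labelled ERAP1+/-, and 4 Y-linked genes had 612 and 46 reads in sum. The part of these differences in the results below was not tested.

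All 10 genes had fewer CPM in the library labelled ERAP1+/- than in WT. Of the 4 genes past the level of 4, 3 were lower (Scd1, Scd3 and Elovl4), 1 was neither (Scd2) and 0 were higher. Over all 8013 genes past the same level, 3.96% were lower and 1.39% were higher. With at least 10 reads in 1 or both libraries, all 10 genes could be counted, and 9 were lower, 0 were higher and Scd2 was neither. The same rule called 5.92% of 15334 genes lower and 3.14% higher. The choice of the genes used this contrast, and nothing is read from these shares. The median log2 difference of the 10 genes was -2.03, -1.95 with the genes that had no read set at 3 reads, and -3.72 with a pseudocount of 0.1 in place of 1, whereas the median of the 15334 genes was 0.0068.

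In sum, the 10 genes had 5183 reads (667 CPM) in WT and 2572 reads (276 CPM) in the library labelled ERAP1+/-, a level of 41.5% of WT (39.5 to 43.5). Most of what was left belonged to Scd1 and Scd2. The other 8 genes together had 1784 reads in WT and 20 in the library labelled ERAP1+/-, 0.936% of the WT level (0.571 to 1.45). This group was formed by leaving out the genes that kept most reads, so that its low level follows in part from the choice. Scd3 and Elovl4 gave 881 and 677 of its WT reads, and the value is mainly theirs. In bulk tissue, fewer cells that express a gene and less RNA per cell cannot be told apart.

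**Figure D1:**
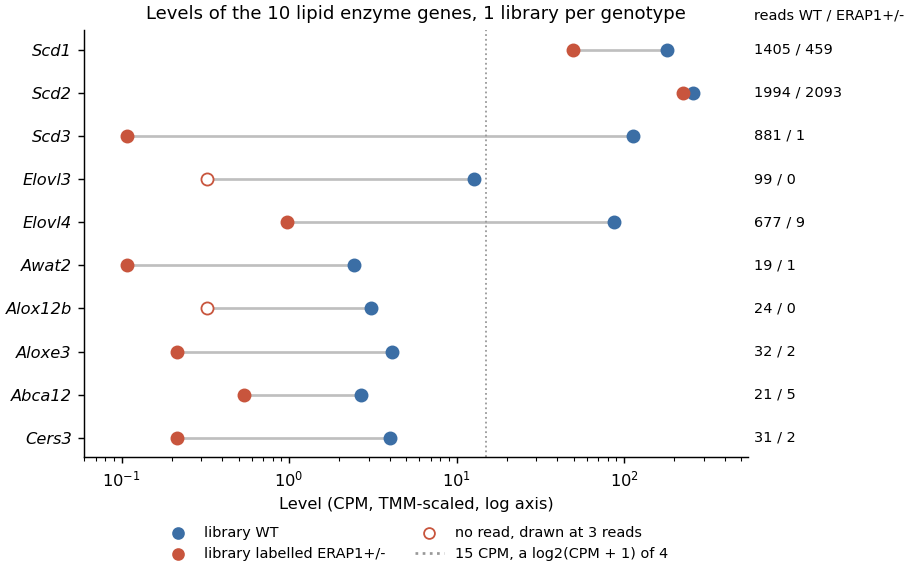
Level of each of the 10 genes in the WT library (blue) and the library labelled ERAP1+/- (red), in CPM on a log axis, with the reads of both libraries at the right; open circles stand for 0 reads, drawn at 3 reads. Scd2 has almost the same level in both libraries, Scd1 is 3.66-fold lower, and the other 8 genes have at most 9 reads in the library labelled ERAP1+/-.

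The sebaceous enzymes begin with the desaturases, which place a double bond in saturated fatty acids. Scd1, the isoform of sebaceous glands, liver and fat, lies on the minus strand at chr19:44394455-44407879 and had 1405 reads (181 CPM) in WT and 459 reads (49.3 CPM) in the library labelled ERAP1+/-. This was 3.66-fold lower (3.30 to 4.08), a log2 difference of -1.85, the one nearest to 0 among the 3 genes called lower past the level. Scd3, an isoform known from sebaceous and Harderian glands, lies on the plus strand at chr19:44203269-44244016. It had 881 reads (113 CPM) in WT and 1 read (0.107 CPM) in the other library. Its level was 0.0948% of WT (0.00240 to 0.530), a log2 difference of -6.69, the lowest of the 10 genes.

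Scd2, an isoform of brain and many other tissues, lies between them on the plus strand at chr19:44293674-44306864 and did not follow them. It had 1994 reads (257 CPM) in WT and 2093 reads (225 CPM) in the library labelled ERAP1+/-, 87.7% of the WT level (82.4 to 93.3). Its log2 difference of -0.19 was far from the 2-fold limit. Scd2 was thus the only one of the 10 genes past neither call, and its interval does not overlap those of Scd1 and Scd3. Mir5114, a microRNA gene, overlaps Scd2 on the same strand, and AC125101.1 lies antisense to Scd3. Reads of Mir5114 and AC125101.1 are not given here.

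Together the 4 desaturase genes had 4330 reads in WT and 2553 in the library labelled ERAP1+/-, so that their make-up changed as well as their sum. Scd2 gave 46.1% of the family's reads in WT (44.6 to 47.5) and 82.0% in the library labelled ERAP1+/- (80.4 to 83.5). The share of Scd1 was 32.4% in WT and 18.0% in the other library, and that of Scd3 was 20.3% and 0.0392%. Scd4, an isoform known from heart and no member of the list, had 50 reads in WT and 0 in the library labelled ERAP1+/-, at least 19.95-fold lower.

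Elovl3 elongates saturated and monounsaturated fatty acids in sebaceous glands, hair follicles and brown fat, and lies on the plus strand at chr19:46131897-46135694. It had 99 reads (12.7 CPM) in WT and 0 in the library labelled ERAP1+/-, at least 39.5-fold lower. Its log2 difference was -3.78, or -3.38 at 3 reads. Its WT value of 3.78 on the log2(CPM + 1) scale was just under the level of 4, which is why it was not among the genes called past that level. Pitx3, which overlaps Elovl3 on the opposite strand, had 0 reads in both libraries.

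Awat2, which joins fatty alcohols to fatty acids to form wax esters, lies on the minus strand at chrX:100402221-100442717. It had 19 reads (2.45 CPM) in WT and 1 read (0.107 CPM) in the library labelled ERAP1+/-, 22.7-fold lower with an interval of 3.62 to 945. At this depth its ratio is therefore known only to within a wide range. Otud6a, on the opposite strand, had 0 reads in both libraries. The sebaceous enzymes Scd1, Scd3, Elovl3 and Awat2 had 2404 reads in sum in WT and 461 in the library labelled ERAP1+/-, 16.02% of the WT level (14.5 to 17.7), and 459 of the 461 were from Scd1.

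The enzymes of the skin barrier begin with Elovl4, which makes the fatty acids of extreme length that acylceramides need, and which also acts in retina and testis. It lies on the minus strand at chr9:83778692-83806277 and had 677 reads (87.1 CPM) in WT and 9 reads (0.967 CPM) in the library labelled ERAP1+/-. This was 90.1-fold lower (47.2 to 198), a log2 difference of -5.49. Cers3, the ceramide synthase that takes up these fatty acids, lies on the plus strand at chr7:66743504-66823691. It had 31 reads (3.99 CPM) in WT and 2 reads (0.215 CPM) in the other library, 18.6-fold lower (4.72 to 160).

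Alox12b and Aloxe3 act one after the other on the linoleate of acylceramides, and the genes lie 7873 bp apart on the plus strand of chromosome 11, at chr11:69156989-69169792 and chr11:69125896-69149115. Alox12b had 24 reads (3.09 CPM) in WT and 0 in the library labelled ERAP1+/-, at least 9.58-fold lower. Aloxe3 had 32 reads (4.12 CPM) and 2 reads (0.215 CPM), 19.2-fold lower (4.89 to 165). Their log2 differences, -2.03 and -2.07, could not be told apart at these counts.

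Abca12, the transporter that loads lipids into lamellar granules, lies on the minus strand at chr1:71242276-71414910. It had 21 reads (2.70 CPM) in WT and 5 reads (0.537 CPM) in the library labelled ERAP1+/-, 5.03-fold lower (1.85 to 17.1), a log2 difference of -1.27. Of the 5 barrier genes its difference was the nearest to 0, though its interval overlaps those of Cers3 and Aloxe3. The 5 genes together had 785 reads in WT and 18 in the library labelled ERAP1+/-, 1.92% of the WT level (1.13 to 3.05). Elovl4 gave most of the WT reads, so that the sum is mainly a value of Elovl4.

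Each of the 10 genes belongs to a larger family, and the relatives were measured in the same libraries. Some of the relatives work in many tissues and others are known mainly from a few, skin among them. Of 32 relatives in the files, 25 had at least 10 reads in 1 or both libraries, of which 6 were lower and 0 were higher. The 6 were Scd4, Alox12e, Alox12, Awat1, Dgat2l6 and Cers4. Among the 15 relatives past the level of 4, 3 were lower. Over all genes, 5.92% were lower with at least 10 reads and 3.96% past the level of 4. The relatives were listed with earlier results of these data known, and nothing is read from these shares. The median log2 difference of the 25 was -0.25, and their summed level, with that of the relatives under 10 reads, was 74.5% of WT (71.9 to 77.1).

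**Figure D2:**
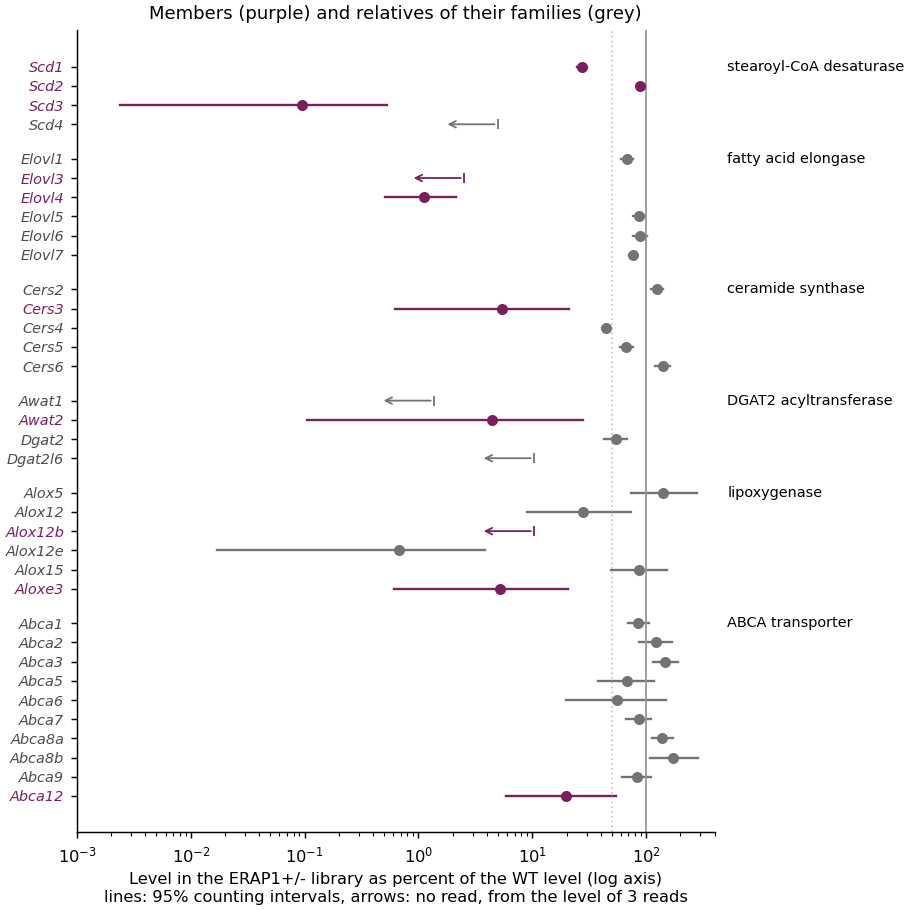
Level in the library labelled ERAP1+/- as percent of the WT level, on a log axis, for the 10 genes (purple) and their relatives (grey) with at least 10 reads in 1 library; lines are 95% counting intervals, and arrows start at the level of 3 reads for genes without a read. The dotted line marks 50% and the solid line 100%: the ABCA transporters other than Abca12 and the elongases other than Elovl3 and Elovl4 lie to the right of 50%, whereas Awat1, Alox12e and Scd4 lie among the purple genes.

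Among the elongases, Elovl4 gave 20.4% of the family's reads in WT and 0.374% in the library labelled ERAP1+/-. Elovl1, Elovl5, Elovl6 and Elovl7, which act on fatty acids in most tissues, had log2 differences of -0.55, -0.21, -0.18 and -0.38. Elovl7 had the most reads of the family in both libraries, 1074 in WT and 988 in the library labelled ERAP1+/-. The low values of Elovl3 and Elovl4 were thus not shared by the other 4 elongases with at least 10 reads.

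Cers3 gave only 1.10% of the ceramide synthase reads in WT and 0.0830% in the library labelled ERAP1+/-. The other ceramide synthases use shorter fatty acids. Cers4, which is known from skin and hair follicles among other tissues, had 1499 reads in WT and 805 in the library labelled ERAP1+/-, 2.23-fold lower (2.04 to 2.43). Cers2 had 463 and 690 reads and Cers6 297 and 496 reads, with log2 differences of 0.31 and 0.47. The relatives of Cers3 thus differed in both directions, and with scaling by the total count their median moved from -0.13 to -0.0082.

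The family of Awat2 held further genes with no read in the library labelled ERAP1+/-. Awat1, the other wax synthase, had 182 reads in WT and 0 in the library labelled ERAP1+/-, at least 72.6-fold lower. Dgat2l6, a neighbour of Awat2 in sequence and on the chromosome, had 24 and 0 reads, at least 9.58-fold lower. Dgat2, which makes triglycerides in most tissues, had 197 and 128 reads, a log2 difference of -0.84. It gave 46.4% of the family's reads in WT and 93.4% in the library labelled ERAP1+/-.

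Among the lipoxygenases, Alox12e, the epidermal 12-lipoxygenase, had 123 reads in WT and 1 in the library labelled ERAP1+/-, 147-fold lower with an interval of 25.9 to 5863. Alox12, the enzyme of platelets, had 18 and 6 reads, 3.59-fold lower (1.37 to 11.1), with a log2 difference of -1.01 on the log2(CPM + 1) scale. Alox15 and Alox5, the enzymes of leukocytes, had 27 and 16 reads in WT and 28 and 27 reads in the library labelled ERAP1+/-. The 9 relatives of Abca12 with at least 10 reads had log2 differences from -0.45 to 0.65, and none of them passed 2-fold.

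**Figure D3:**
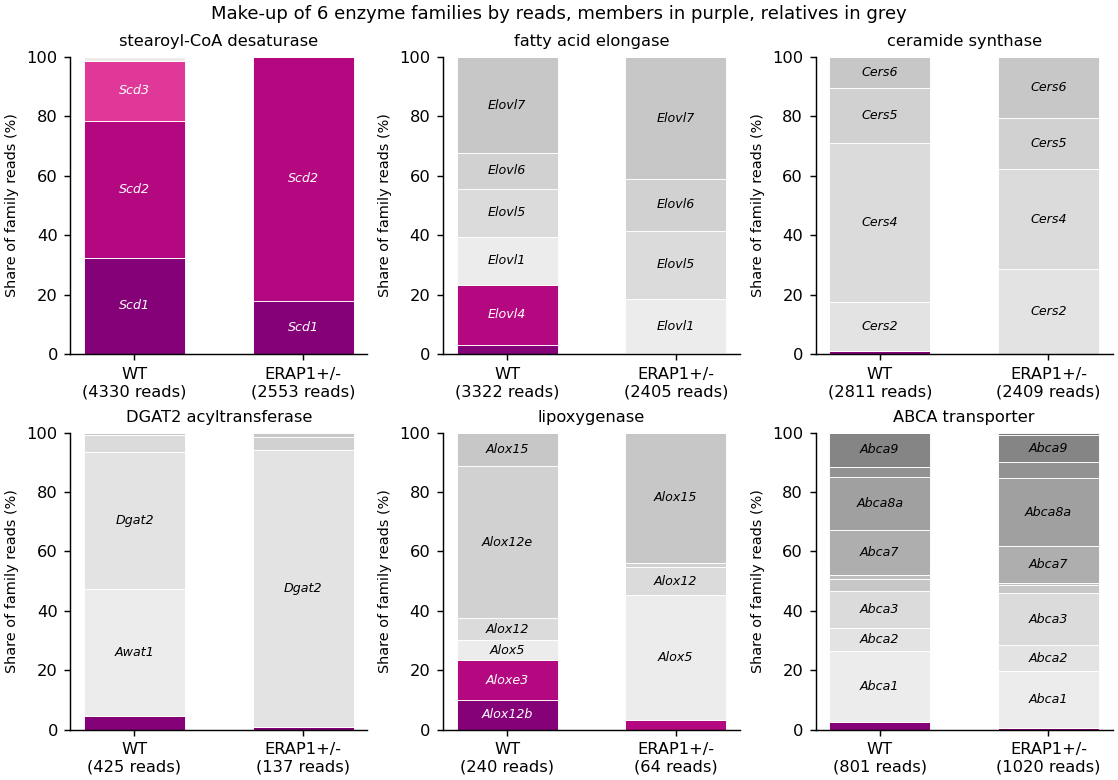
Share of each gene in the reads of its family, in percent, for 6 families in the WT library (left bar) and the library labelled ERAP1+/- (right bar), with the 10 genes in purple and their relatives in grey. The purple part shrinks in all 6 families except that of the desaturases, where Scd2 grows from 46.1% to 82.0%.

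Further genes of both pathways were taken from lists of 16 sebaceous lipid enzymes and 23 skin barrier lipid genes, and all 39 had at least 10 reads in 1 or both libraries. Of the 39 genes, 13 were lower and 0 were higher, with a median log2 difference of -0.55. Past the level of 4 there were 28 of them, of which 3 were lower (Awat1, Far2 and Fa2h). The shares over all genes were 5.92% lower with at least 10 reads and 3.96% lower past the level of 4. The lists were written with earlier results of these data known, and nothing is read from these shares.

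Of the 16 sebaceous enzymes, 5 were lower and 11 were neither, with a median of -0.64. Besides Awat1 and Dgat2l6, the lower genes were Far2, Hsd3b6 and Fa2h. Far2, which makes the fatty alcohols of wax esters, had 274 reads in WT and 26 in the library labelled ERAP1+/-, 12.6-fold lower (8.43 to 19.7). Hsd3b6, a steroid dehydrogenase, had 12 and 0 reads, at least 4.79-fold lower. Fa2h, which adds a hydroxyl group to fatty acids, had 487 and 282 reads, 2.07-fold lower (1.78 to 2.40). Its difference lay just past 2-fold.

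Of the 11 sebaceous enzymes that did not pass 2-fold, Fads2, Soat1, Fasn and Far1 had the most reads over both libraries. Fasn, the fatty acid synthase, had 734 reads in WT and 871 in the library labelled ERAP1+/-, a log2 difference of -0.01. Fads2, a desaturase of polyunsaturated fatty acids, had 1082 and 2036 reads, a log2 difference of 0.65. Soat1, which makes sterol esters, had 938 and 675 reads, a log2 difference of -0.73. Far1, the relative of Far2, had 456 and 684 reads, a log2 difference of 0.32, opposite in sign to that of Far2.

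Of the 23 barrier genes, 8 were lower and 15 were neither, with a median of -0.46, and none of the 14 past the level of 4 was lower. The 8 lower genes all had between 12 and 52 reads in WT and at most 12 in the library labelled ERAP1+/-. Cyp4f39, which adds a hydroxyl group to the end of very long fatty acids, had 52 and 3 reads, 20.8-fold lower (6.72 to 104). Pnpla1, which transfers linoleate to form acylceramide, had 44 and 12 reads, 4.39-fold lower (2.28 to 9.13). Sdr9c7, a dehydrogenase that acts after the lipoxygenases, had 29 and 0 reads, at least 11.6-fold lower.

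The other lower genes of the barrier list were fewer in reads. Sptlc3, a subunit of the enzyme that starts ceramide synthesis, had 24 and 1 reads, whereas its partners Sptlc1 and Sptlc2 had 652 and 703 reads in WT and 742 and 759 in the library labelled ERAP1+/-. Ephx3, an epoxide hydrolase, had 37 and 2 reads. The epidermal lipases Lipm, Lipk and Lipn had 43, 26 and 12 reads in WT and 0, 0 and 1 in the library labelled ERAP1+/-. Psap, the precursor of the saposins, had the most reads of the list, 3510 and 4161, and a log2 difference of -0.01. Degs2, which makes phytoceramides, had 779 and 801 reads, a log2 difference of -0.22.

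**Figure D4:**
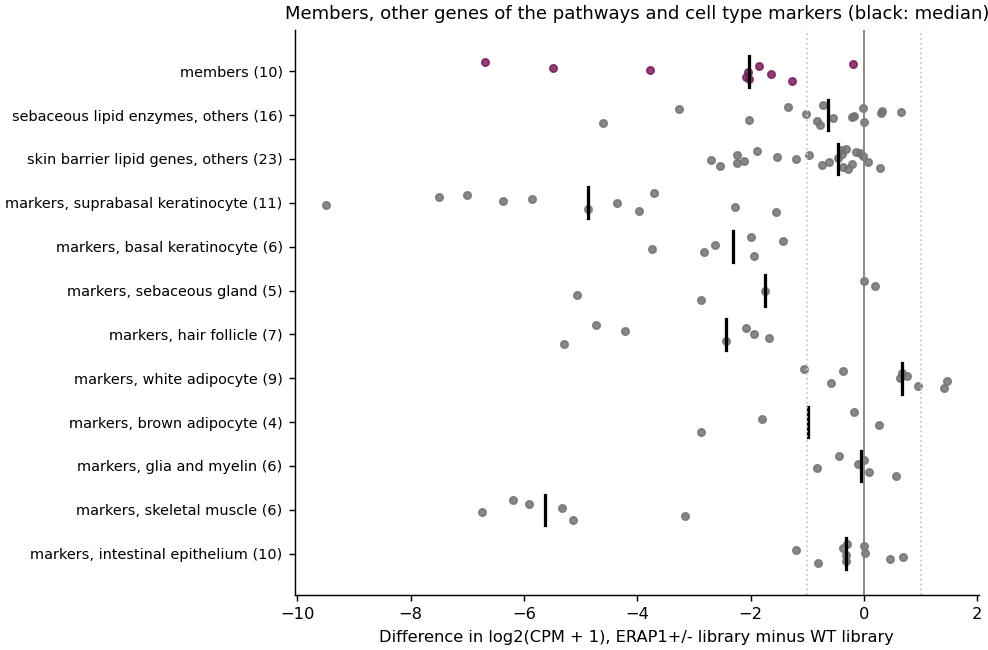
Log2 differences, in log2(CPM + 1) as the library labelled ERAP1+/- minus WT, of the 10 genes, the other genes of both pathways and lists of cell type markers, each point a gene with at least 10 reads in 1 library and each black bar the median of a list. The median is -2.03 for the 10 genes, -1.74 for the sebaceous gland markers, -2.31 for the basal keratinocyte markers and -0.31 for the intestinal epithelium markers; with a pseudocount of 0.1 these are -3.72, -3.73, -3.02 and -0.31.

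Markers of skin also differed between the libraries. For the counts of markers below, the shares over all 15334 genes with at least 10 reads were 5.92% lower and 3.14% higher. The marker lists too were written with earlier results known. All 11 suprabasal keratinocyte markers with at least 10 reads were lower. Their median was -4.87, -4.47 with genes without a read at 3 reads, and -7.50 with a pseudocount of 0.1. Their summed level was 2622 CPM in WT and 47.7 CPM in the library labelled ERAP1+/-. Flg, which encodes filaggrin, had 7952 reads in WT and 4 in the library labelled ERAP1+/-. Casp14 had 81.5 CPM in WT and gave 27.2 of the 47.7 CPM left in the library labelled ERAP1+/-. Ivl, Dsc1 and Dsg1a had 0 reads in that library, and Krt2 had 0 in both. All 6 basal keratinocyte markers were lower, with sums of 522 and 147 CPM and a median of -2.31, and Trp63 had 0 reads in the library labelled ERAP1+/-. Sfn gave most of both sums, with 343 CPM in WT and 127 CPM in the other library.

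Hair follicle and sebaceous gland markers were measured in the same way. All 7 hair follicle markers with at least 10 reads were lower, with sums of 1041 and 14 reads (134 and 1.505 CPM) over the list. Their median was -2.43, -2.02 with genes without a read at 3 reads, and -5.35 with a pseudocount of 0.1. Only Tchh kept reads in the library labelled ERAP1+/-, with 507 in WT and 14 there. Of 5 sebaceous gland markers, 3 were lower and 2 were neither, with a median of -1.74 and sums of 283 and 201 CPM. Krt79 had 616 and 13 reads, Cidea 98 and 8 reads, and Mc5r 21 and 1 reads. Mgst1 and Plin2, which other tissues also express, had 567 and 895 reads in WT and 777 and 1069 in the library labelled ERAP1+/-, so that the sum of the list is mostly theirs.

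White fat also expresses Scd1, and its markers were measured too. Of 9 white adipocyte markers with at least 10 reads, 1 was lower and 2 were higher, with a median of 0.67 and sums of 171 and 235 CPM. Of these 9 markers, 6 had positive differences and 3 had negative ones. The defining markers Adipoq, Plin1, Cidec and Lep had 62 reads in sum in WT and 178 in the library labelled ERAP1+/-. Most of this sum was from Adipoq, with 34 and 124 reads, whereas Lep went the other way with 7 and 4. None of the defining markers was at 0. Of 4 brown adipocyte markers with at least 10 reads, 2 were lower, with a median of -0.99 and sums of 144 and 152 CPM. Cox7a1, which other tissues also express, gave most of these sums with 964 and 1381 reads, while Cidea had 98 and 8 reads and Cox8b 37 and 6. Of the other brown adipocyte markers, Ucp1 had 3 and 0 reads, Otop1 had 0 in both libraries and Dio2 had 19 in both.

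All 6 skeletal muscle markers were lower, with sums of 865 and 17.3 CPM and a median of -5.62. Of 6 glia and myelin markers none passed 2-fold, with sums of 84.2 and 80.2 CPM and a median of -0.06, which was 0.06 with scaling by the total count. The labelled tissue was represented in both libraries: 10 of 10 intestinal epithelium markers passed the level of 4, with sums of 8519 CPM in WT and 6852 CPM in the library labelled ERAP1+/-, a median of -0.31, and Krt20 alone past 2-fold. The part of skin, hair or muscle in the values of the 10 genes was not tested, and genotype and pool cannot be told apart.

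The 10 genes lie at 7 places in the genome, and their neighbours were measured in the same libraries. Of 21 genes within 100 kb that had at least 10 reads, 1 was lower (Dgat2l6, beside Awat2) and 0 were higher, with log2 differences from -2.03 to 0.79. By the same rule, 5.92% of all 15334 genes were lower and 3.14% higher, and nothing is read from the count of neighbours. The desaturases Scd3, Scd2, Scd4 and Scd1 form a cluster of 204611 bp at chr19:44203269-44407879. Within 100 kb of this cluster, 5 other genes ran from -0.66 to 0.41. Inside the cluster, Scd2 with -0.19 lies 49657 bp from Scd3 with -6.69 and 26227 bp from Scd4, which had 0 reads in the library labelled ERAP1+/-.

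The pair Alox12b and Aloxe3 had 7 such neighbours, which ran from -0.67 to 0.51. Elovl3, which lies 1724017 bp from Scd1 on the same chromosome, had 4 neighbours from -0.12 to 0.79. Elovl4 had 1 neighbour, with 0.72, and Cers3 had 2, with 0.07 and 0.19. No gene within 100 kb of Abca12 had 10 reads. Among the genes with enough reads to be counted at these places, those called lower were Scd4, Dgat2l6 and every member except Scd2.

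**Figure D5:**
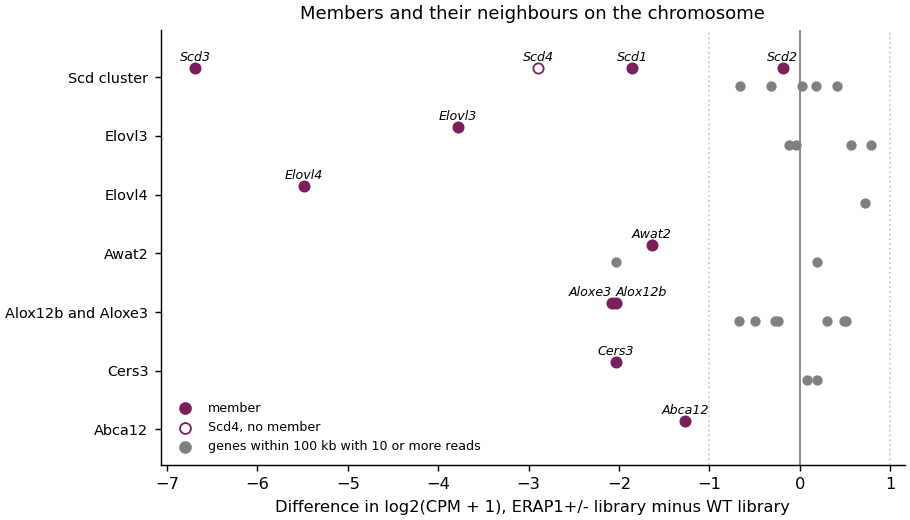
Log2 differences, in log2(CPM + 1) as the library labelled ERAP1+/- minus WT, of the 10 genes (purple) and Scd4 (open circle) by place in the genome, with the genes within 100 kb that had at least 10 reads in grey; dotted lines mark 2-fold. Apart from Dgat2l6 at -2.03 beside Awat2, the grey points lie between -0.67 and 0.79.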

How the data were processed

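Per the labels and the study's methods, total RNA of untreated mouse intestine was pooled from 3 mice per genotype and made into libraries with the QuantSeq 3' mRNA-Seq FWD kit. The files the authors deposited hold counts: reads per gene symbol, whole and not normalized. The methods name both STAR with HTSeq-count and Bowtie2 with RSEM, and the submitters' processing notes name Bowtie2, RSEM and GRCm38; which of them made the counts, and with which strand setting, is not given in the sources used here.

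TMM factors (0.958 for WT, 1.04 for the library labelled ERAP1+/-) came from edgeR 4.0.16 (R 4.3.3), and CPM and log2(CPM + 1) from the scaled totals. Exact conditional binomial intervals were computed with scipy 1.17.1. With 1 library per genotype no test was run. The rule of size and the intervals were checked on simulated data that held counting noise only. Changes there were 4-fold and in genes with many reads. The check therefore does not cover genes with few reads or differences between pools. Alternatives were DESeq2 1.42.0 size factors, scaling by totals, other filters, 4-fold, a pseudocount of 0.1, thinning, and totals without mitochondrial genes and ribosomal RNA.

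Named genes were all 10 members, Erap1, relatives and pathway genes past the rule of size, up to 4 others per list by reads, and up to 3 markers per list. Markers at 0, all sebaceous gland markers and the defining white fat markers were added to these after their values were seen. So were the brown fat markers Ucp1, Otop1, Dio2, Cidea and Cox8b, the overlapping genes Pitx3 and Otud6a, and the sex-chromosome genes. Mir5114 and AC125101.1, which also overlap members, were named without their reads. Casp14 was also added after its values were seen. The members and lists were chosen with earlier results of these data known. Genes were placed by symbol in GENCODE M21 on GRCm38, and shared runs of 75 bases were sought in its transcripts. The authors' enrichment analysis was not remade.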

Additional observations from a re-analysis of the deposited data

How the results depend on the processing

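All 10 differences were negative under each of 5 settings (DESeq2 size factors, total count, pseudocount of 0.1, thinning to the WT depth, and totals without mitochondrial genes and ribosomal RNA). The number of members lower, 3 past the level of 4, was 9 without a filter, 9 where 10 reads in 1 library sufficed, 4 without mitochondrial genes and ribosomal RNA, where Elovl3 reached the level, and 2 at 4-fold (Scd3 and Elovl4); it was 3 with DESeq2 size factors, the total count, a pseudocount of 0.1 and thinning, and 0 members were higher in any of these. The median of the members, -2.03, was -3.72 with a pseudocount of 0.1 and -2.23 without mitochondrial genes and ribosomal RNA, the former because genes with few reads move most with the pseudocount. With scaling by the total count, the median over all genes at that level went from -0.026 to 0.11, and the share called lower from 3.96% to 3.08%.

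No paired analysis was possible because neither genotype has a further library to pair, and for the same reason no library was left out. Depth limits Awat2, Alox12b, Aloxe3, Abca12 and Cers3, which had 19 to 32 reads in WT, so that their ratios are known only within wide intervals. The intervals do not cover differences between mice. Strand setting and aligner being unstated, reads shared among the desaturases were not traced.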
